A study of Mus musculus with 2 samples.

Results

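The Ifi200 (PYHIN) family genes Ifi203, Ifi204, Ifi205, Ifi207, Ifi209, Ifi211, Ifi213 and Mndal were followed across the mononuclear cells of mouse limb muscle. They are 8 of the 32285 genes listed in the count tables and 8 of the 13 genes of the family listed there, the others being Aim2, Ifi202b, Ifi206, Ifi208 and Ifi214. The 8 were picked by symbol after their levels in these same cells had been seen, so their levels and ratios are given as a description and with no test. Aged C57BL/6 mice received Maraviroc (MVC) or its vehicle DMSO by intraperitoneal injection, and live mononuclear cells of their limb muscle were sorted with a viability dye after red cell lysis. The comparison asks how gene activity in the muscle niche of aging mice differs after MVC. There was 1 droplet library (10x Genomics) in each group, and the number of mice behind each library was not given in the sources used here, so every MVC vs. DMSO value compares 2 libraries and not 2 conditions.

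The genes of this family are induced by interferons in many cell types, and their products share a HIN domain that can bind DNA, in most of them joined to a pyrin domain. Some of the proteins act as sensors of DNA in the cytosol or the nucleus and others have been linked to transcription, cell cycle arrest and differentiation. In muscle, the main stromal cells are the fibro-adipogenic progenitors (FAPs), Pdgfra-expressing fibroblasts that support muscle stem cells (MuSCs) and can turn into adipocytes or scar-forming cells.

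The study's own limits were applied, a minimum of 500 genes and a maximum of 10% mitochondrial counts in each cell. This left 5437 cells of the DMSO library with a median of 5802 unique molecular identifiers (UMIs, counted molecules) and 5454 cells of the MVC library with a median of 5195. The 8 members together held 54747 UMIs in the DMSO library and 51570 in the MVC library. Levels are counts per 1000000 (CPM), the UMIs of a gene scaled to the UMIs of the cell class and library, and intervals are exact 95% intervals that cover counting error only. The 2 libraries shared 8 barcode sequences among the kept cells. Likely doublets, 4.34% (DMSO) and 4.36% (MVC) of cells, were kept, and values that turned on them are given with and without them.

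The 8 genes lay side by side on chromosome 1 (GRCm38, GENCODE M21), all annotated as protein coding, in a stretch of 466 kb from Ifi213 (173566283-173599274) to Ifi205 (174011998-174031810). Ifi209 (173630917-173647928) is on the plus strand. Ifi207 (173723427-173741747), Ifi204 (173747293-173766943), Mndal (173849126-173942491), Ifi211 (173896345-173913046) and Ifi203 (173920407-173942672) are, with Ifi213 and Ifi205, on the minus strand. The annotated extent of Mndal, 93.4 kb, covered all of Ifi211 and 22.1 kb of the 22.3 kb of Ifi203 on the same strand.

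**Figure D1:**
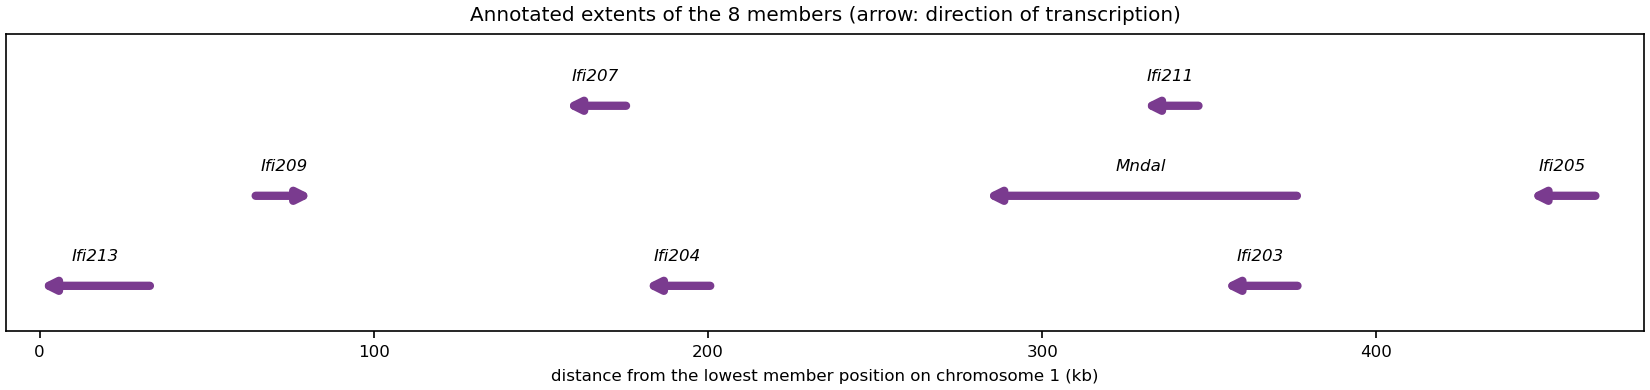
Annotated extents of the 8 members on chromosome 1 as distance in kb from the lowest member position, with arrows in the direction of transcription; the height of an arrow has no meaning. Only Ifi209 points to the right, and the arrow of Mndal spans those of Ifi211 and Ifi203.

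The promoters of 5 members are shown, those of the 6 members detected in over 50% of Pdgfra-expressing cells for which a window was at hand. RefSeq (GRCm38.p6) gave a window of 300 bases, from 250 before to 50 after the start, for 7 of the 8 members, 9 windows in all since Ifi203 and Mndal had 2 each; Ifi204 had none. The windows are those of Ifi205 (chr1:174031706-174032005), Ifi207 (chr1:173741760-173742059), Ifi211 (chr1:173912997-173913296), Ifi203 (chr1:173942443-173942742) and Mndal (chr1:173880138-173880437), all on the minus strand and written 5′ to 3′ as transcribed. Capitals mark a match to GAAA, any 2 bases, GAAA (the core of the interferon-stimulated response element, ISRE; TTTC, any 2 bases, TTTC on the other strand) or to TGANTCA (the AP-1 motif).
Ifi205: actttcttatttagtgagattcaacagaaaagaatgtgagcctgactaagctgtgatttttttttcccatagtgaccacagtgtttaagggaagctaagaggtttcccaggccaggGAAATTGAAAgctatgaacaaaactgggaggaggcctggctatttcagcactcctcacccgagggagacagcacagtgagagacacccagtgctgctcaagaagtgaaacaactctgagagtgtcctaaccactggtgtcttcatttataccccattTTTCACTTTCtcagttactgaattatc
Ifi207: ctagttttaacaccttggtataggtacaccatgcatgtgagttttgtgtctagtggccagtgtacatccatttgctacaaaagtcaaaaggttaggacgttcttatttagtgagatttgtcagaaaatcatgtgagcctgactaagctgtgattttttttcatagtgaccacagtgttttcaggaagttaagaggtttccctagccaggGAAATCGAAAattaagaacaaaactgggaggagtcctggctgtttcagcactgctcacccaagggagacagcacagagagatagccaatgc
Ifi211: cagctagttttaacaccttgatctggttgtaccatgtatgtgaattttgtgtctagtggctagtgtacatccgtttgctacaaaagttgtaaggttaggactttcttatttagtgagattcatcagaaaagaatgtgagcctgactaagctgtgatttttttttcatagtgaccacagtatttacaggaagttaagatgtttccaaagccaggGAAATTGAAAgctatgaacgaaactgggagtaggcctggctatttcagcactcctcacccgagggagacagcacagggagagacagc
Ifi203: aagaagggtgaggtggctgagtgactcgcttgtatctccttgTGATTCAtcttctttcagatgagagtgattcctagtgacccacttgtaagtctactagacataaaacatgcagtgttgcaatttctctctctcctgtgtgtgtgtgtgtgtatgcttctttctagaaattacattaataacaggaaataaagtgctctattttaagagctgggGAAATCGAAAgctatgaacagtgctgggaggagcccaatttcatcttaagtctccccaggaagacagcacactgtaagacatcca
Mndal: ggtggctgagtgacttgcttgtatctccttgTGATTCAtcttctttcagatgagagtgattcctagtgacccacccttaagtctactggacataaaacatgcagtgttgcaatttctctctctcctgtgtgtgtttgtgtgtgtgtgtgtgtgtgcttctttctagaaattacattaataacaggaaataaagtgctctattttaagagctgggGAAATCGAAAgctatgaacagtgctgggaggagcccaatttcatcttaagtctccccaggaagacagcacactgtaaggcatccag

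The ISRE core was found on either strand in 7 of the 9 member windows, belonging to 6 members, and in 3.43% of all 32817 windows of this length. It started 41, 37, 35 and 36 bases before the start of Ifi207, Ifi211, Ifi203 and Mndal, and 73 bases before that of Ifi213, while Ifi205 had it 134 bases before and again 23 bases after its start. The AP-1 motif was in 5 of the 9 windows (Ifi203, Mndal and Ifi209) and in 7.81% of all windows. Neither the interferon-gamma activated site (TTC, any 3 bases, GAA, 8.29% of all windows) nor the NF-kB motif (GGG, any 2 bases, TTTCC, 1.63%) was in these letters of a member window. The windows printed for Ifi203 and Mndal were 90.7% identical and those of Ifi207 and Ifi211 85.9%. These matches describe the sequence and are not shown to be bound sites, and near-identical copies would share them.

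Reads of near-identical members can be split or lost between them, and how the counting treated such reads was not given in the sources used here. Of the 31-base words in the last 500 bases of coding transcripts, where a 3′ library reads, 90.9% of those of Ifi205 also occurred in another gene (88.1% in Ifi211) and 86.4% of those of Ifi211 did, all in Ifi205. For Ifi209 the share was 71.7%, with Ifi214 as the closest copy. It was 35.6% for Mndal, 27.0% for Ifi213, 18.5% for Ifi204, 13.9% for Ifi207 and 7.13% for Ifi203. Values of Ifi205, Ifi211 and Ifi209 are therefore uncertain by a share that the tables do not give.

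Cells were clustered without the family genes, and the 25 clusters were named from marker genes, as X-like, so the classes may differ from those of the study. FAP-like cells, 1206 in the DMSO library and 1433 in the MVC library, comprised 3 clusters. Cluster 1 (574 and 552 cells) was led by Tnfaip2, Ptx3, Ccl7 and Cxcl1 beside members of the family, cluster 2 (339 and 566 cells) by Cxcl14 and Smoc2, and cluster 5 (293 and 315 cells) by Pi16 and Dmkn. Cluster 1 was the largest of the 3 in the DMSO library and cluster 2 in the MVC library. Cells with at least 1 Pdgfra UMI (1161 and 1332 cells) are called Pdgfra-expressing, and 87.5% of them in the DMSO library and 85.5% in the MVC library were FAP-like.

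The family was concentrated in stromal cells. Pdgfra-expressing cells were 21.4% of the cells and held 32.9% of all UMIs of the DMSO library, and they held 73.2% of its member UMIs. In the MVC library they were 24.4% of the cells, with 38.4% of all UMIs and 67.2% of the member UMIs. The share differed widely between members. Of the Ifi205 UMIs, 92.9% in the DMSO library and 87.9% in the MVC library lay in FAP-like cells, against 54.3% and 52.8% of the Mndal UMIs and 2.49% and 0.995% of the Ifi209 UMIs.

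Ifi205, Ifi204, Ifi211 and Ifi207 are called the stromal group here. The name is a label only, since macrophage-like cells matched FAP-like cells for Ifi207, and Ifi203 was also high in FAP-like cells. Ifi205, which encodes p205, a protein linked to inflammasome genes and to differentiation of mesenchymal cells, stood at 1080 CPM (1063 to 1098) in FAP-like cells of the DMSO library and at 757 CPM (742 to 772) in those of the MVC library. The next class in the DMSO library was pericyte-like at 119 CPM, whose interval met that of tenocyte-like cells at 93.6 CPM. In the MVC library it was tenocyte-like at 189 CPM, which met the unnamed Ccl19/Lgr5 cluster at 187 CPM. FAP-like cells were thus apart from every other class for Ifi205 in both libraries. The order of the classes below them is not read, since the pericyte-like difference between the libraries was lost with doublets removed (log2 ratio of 0.04) and that of the unnamed cluster without the 3 cells of each library richest in Ifi205 (0.21). EC-like (endothelial) cells stood at 12.4 and 8.66 CPM.

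Ifi204 encodes p204, a DNA sensor that can signal through STING. It was at 498 CPM in FAP-like cells of the DMSO library and 424 CPM in those of the MVC library, followed by macrophage-like cells at 284 and 208 CPM and by the unnamed cluster at 86.0 and 86.3 CPM. The first 3 classes were in the same order in both libraries and their intervals did not meet. Ifi211 was at 456 and 364 CPM in FAP-like cells and at 167 and 144 CPM in macrophage-like cells, where its interval met that of the next class in each library.

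Ifi207 differed from the other 3 in that macrophage-like cells matched the FAP-like cells. In the DMSO library it stood at 590 CPM in FAP-like and 575 CPM in macrophage-like cells, and in the MVC library at 530 and 539 CPM, with intervals that met in both libraries. The unnamed cluster followed at 415 and 304 CPM, apart from both neighbours.

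Ifi203 and Mndal, which encode the nuclear proteins p203 and myeloid nuclear differentiation antigen-like, were spread over more classes. Ifi203 was at 439 CPM in FAP-like and 496 CPM in the unnamed cells of the DMSO library, and at 468 and 452 CPM in the MVC library. Macrophage-like cells followed at 210 and 302 CPM. Mndal was at 240 CPM in FAP-like, 280 CPM in unnamed, 183 CPM in macrophage-like and 112 CPM in EC-like cells of the DMSO library. In the MVC library it was at 290, 319, 271 and 236 CPM in the same classes. The intervals of the first 2 classes met for both genes in both libraries.

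Ifi209 was a leukocyte gene in these cells, and Ifi213 was scarce in every class. Ifi209 was at 116 and 91.6 CPM in B cell-like, 44.2 and 37.8 CPM in T/NK-like and 33.1 and 51.6 CPM in macrophage-like cells of the DMSO and MVC libraries, and FAP-like cells held 7 UMIs in the DMSO library and 2 in the MVC library. Ifi213 had its highest level in T/NK-like cells at 21.2 CPM (35 UMIs) in the DMSO library and 16.8 CPM (8 UMIs) in that of MVC. It stood, among FAP-like cells, at 1.38 and 0.663 CPM. At 2000 UMIs per cell it was seen in 5.46% and 3.77% of T/NK-like cells, in 0.252% and 1.14% of EC-like cells and in 0 of 144 and 0 of 196 macrophage-like cells, where the exact intervals reach 2.53% and 1.86%.

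**Figure D2:**
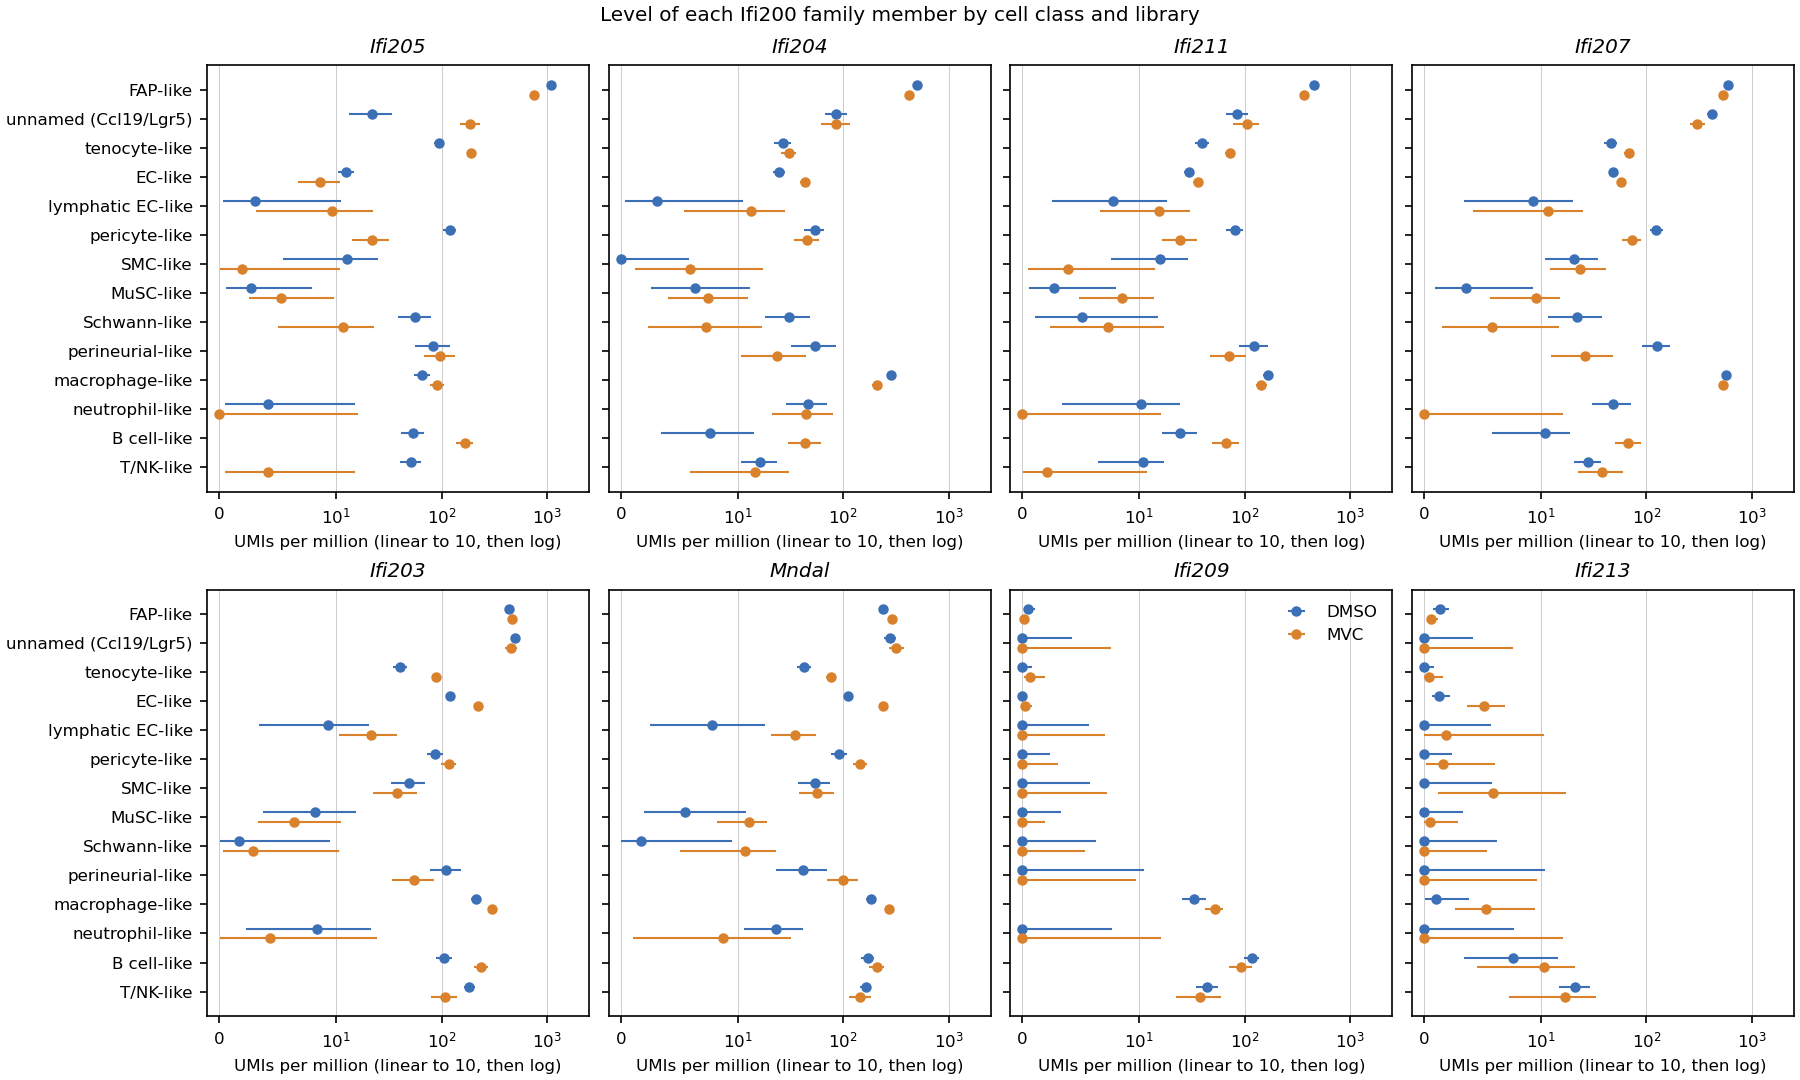
Level of each member in 14 cell classes (CPM, linear up to 10 and logarithmic above) in the DMSO and MVC libraries, with bars for exact 95% counting intervals. FAP-like cells lie far to the right for Ifi205, Ifi204 and Ifi211, macrophage-like cells lie beside them for Ifi207, and the points of Ifi209 above 30 are those of B cell-like, T/NK-like and macrophage-like cells.

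MuSC-like cells served as the class with little of the family. Their summed member level was 29.1 CPM (32 UMIs) in the DMSO library and 50.6 CPM (95 UMIs) in the MVC library, against 3306 and 2833 CPM in FAP-like cells. Doublets were called for 4 of the 145 DMSO and 16 of the 261 MVC MuSC-like cells, and the log2 ratio of this sum went from 0.80 to -0.09 without them. The parts of free RNA and of doublets in it were not tested further. At least 1 member UMI was seen in 9.66% and 11.1% of MuSC-like cells (median depth 6764 and 6417 UMIs) and in 93.9% and 90.4% of Pdgfra-expressing cells (median depth 10406 and 9827 UMIs). Single members reached 83.5% and 71.9% of Pdgfra-expressing cells for Ifi207 and 78.7% and 67.4% for Ifi205, while Ifi209 at 0.689% and 0.450% and Ifi213 at 0.775% and 0.826% were not above the range of single members in MuSC-like cells (up to 4.21%).

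To compare single cells at 1 depth, each cell was thinned to 2000 UMIs, which left out 22 of the Pdgfra-expressing cells in the DMSO library and 54 in the MVC library. At this depth 3 or more members were found in 51.8% (48.9 to 54.7) of the 1139 DMSO cells and in 39.8% (37.1 to 42.6) of the 1278 MVC cells. The median cell held 3 members in the DMSO library and 2 in the MVC library. Ifi205 was seen in 58.4% of thinned DMSO cells and 42.6% of thinned MVC cells, Ifi204 in 47.1% and 37.2%, Ifi207 in 52.9% and 46.8%, and Ifi211 in 44.7% and 37.8%. Ifi203 was seen in 30.03% and 31.8%, and Mndal in 25.2% and 28.7%. The 4 genes of the stromal group were thus seen in fewer cells of the MVC library, and the other 2 were not.

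The mean number of members in a cell differed more between the FAP-like clusters than between the libraries. In cluster 1 the median thinned cell held 4 members in both libraries, with means of 3.55 and 3.73, and 6 members were seen together in 8.72% of DMSO and 14.1% of MVC cells. Means were 1.92 and 1.56 members in cluster 2 and 2.29 and 2.32 in cluster 5. Cells without a Pdgfra UMI held a mean of 0.585 and 0.827 members. Cluster 1 made up 41.0% of the Pdgfra-expressing cells of the DMSO library and 30.3% of those of the MVC library, and cluster 2 made up 27.1% and 38.1%.

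**Figure D3:**
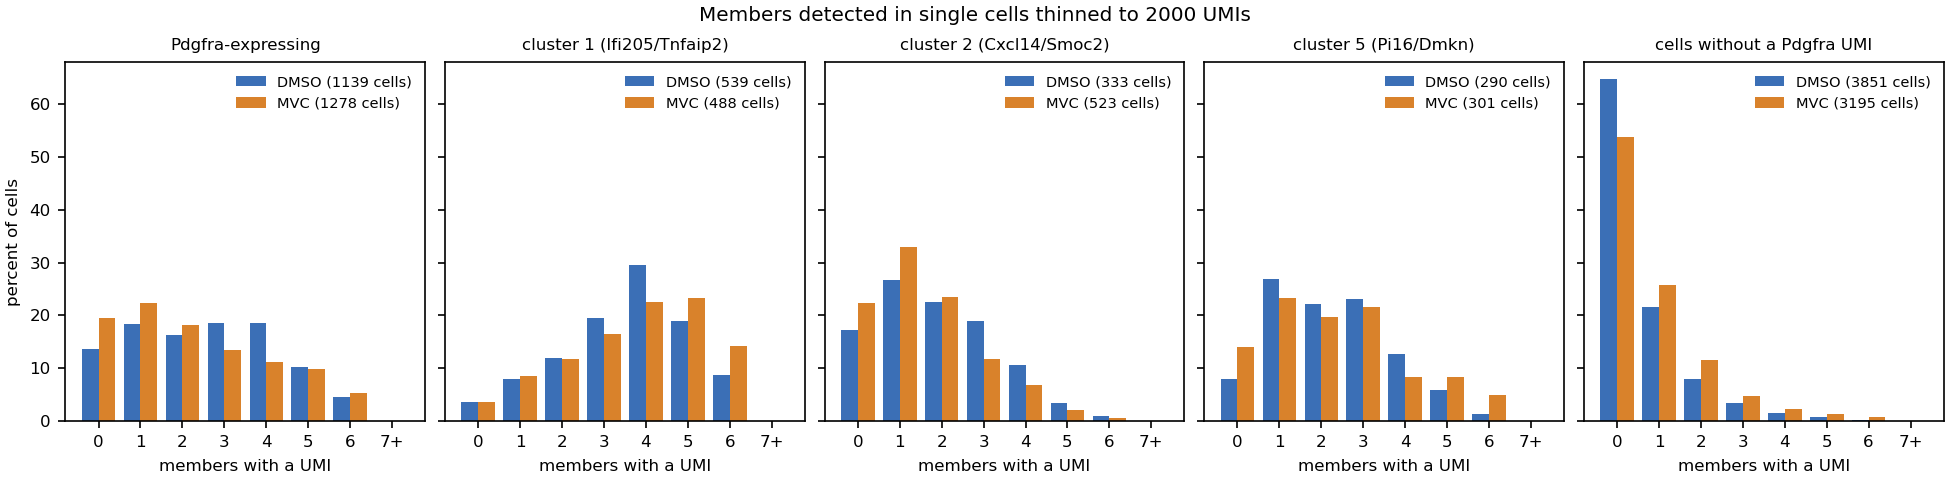
Percent of cells, thinned to 2000 UMIs each, that held 0 to 6 or more of the 8 members, in the DMSO and MVC libraries. Bars of cluster 1 peak at 4 members in the DMSO library (29.5%) and at 5 in the MVC library (23.4%), and 64.7% of DMSO and 53.9% of MVC cells without a Pdgfra UMI held none.

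Members tended to occur in the same cells, but weakly. Over thinned Pdgfra-expressing cells, the Pearson correlation of the 15 pairs of the 6 abundant members had a median of 0.28 (0.13 to 0.43) in the DMSO library and of 0.34 (0.23 to 0.42) in the MVC library. Within cluster 1 the medians were 0.20 and 0.23, within cluster 2 0.17 and 0.14, and within cluster 5 0.17 and 0.28. The cells of a library share its preparation and these values come from sparse counts, so no finding is read from them.

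Over the 25 clusters, with the libraries pooled, the pair with the highest Pearson r was Ifi203 and Mndal (0.97). Ifi207 and Ifi211 had an r of 0.93, Ifi204 and Ifi207 0.92, Ifi204 and Ifi211 0.91, Ifi205 and Ifi211 0.88 and Ifi205 and Ifi204 0.80. The lowest value among these 4 genes was 0.78 (Ifi205 and Ifi207), and the values between them and the pair of Ifi203 and Mndal reached up to it, from 0.47 for Ifi205 and Mndal to 0.72 for Ifi207 and Mndal and 0.77 for Ifi203 and Ifi207, so the groups were not separate. Ifi209 and Ifi213 had an r of 0.63 with each other and at most 0.39 with any other member. The clusters share the 2 libraries, and the annotated overlap of Ifi203 with Mndal and the shared 3′ words of Ifi205 and Ifi211 bear on 2 of these pairs; their part was not tested.

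**Figure D4:**
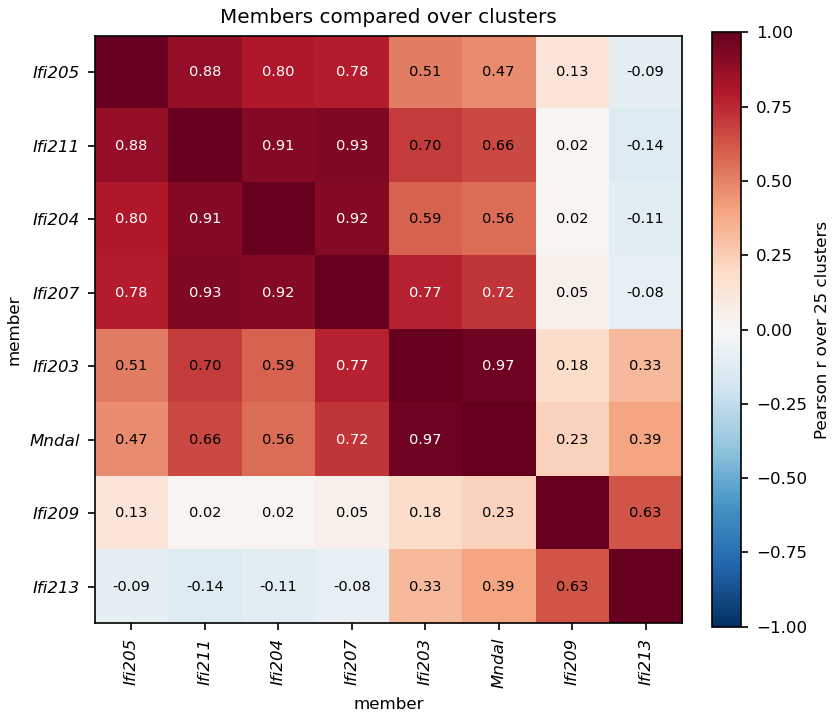
Pearson r of the level of each pair of members over 25 clusters, coloured from -1 (blue) to 1 (red). Pairs among Ifi205, Ifi211, Ifi204 and Ifi207 run from 0.78 to 0.93, their pairs with Ifi203 and Mndal from 0.47 to 0.77, Ifi203 with Mndal stands at 0.97, and Ifi209 with Ifi213 at 0.63.

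In Pdgfra-expressing cells the members were unequally changed between the libraries. The summed level was 3144 CPM in the DMSO library and 2537 CPM in the MVC library, a ratio MVC vs. DMSO of 0.807 (0.796 to 0.819), whereas the median log2 ratio of all genes compared was 0.13. Ifi205 stood at 1010 and 671 CPM (0.665, 0.647 to 0.683), Ifi211 at 435 and 325 CPM (0.748, 0.719 to 0.778) and Ifi204 at 466 and 364 CPM (0.780, 0.751 to 0.810). Ifi207 was at 578 and 480 CPM (0.831, 0.804 to 0.860). Each gene of the stromal group was lower in the MVC library in these pooled cells. Ifi203 was at 410 and 421 CPM (1.03, 0.989 to 1.07) and Mndal at 242 and 274 CPM (1.13, 1.08 to 1.19). These ratios pool clusters whose shares of the cells differed between the libraries. Within the FAP-like clusters the stromal group was not lower in each, with Ifi207 at 1.02 in cluster 1, 0.651 in cluster 2 and 1.08 in cluster 5.

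A gene is counted as higher or lower when the ratio passes 1.5-fold with at least 20 UMIs over both libraries. By this rule 2 of the 7 members compared were lower in the MVC library, Ifi205 and Ifi213, against 5.74% of the 15423 genes compared (19.5% in either direction). Ifi213 rested on 12 vs. 18 UMIs, and its interval (0.273 to 1.37) held 1. Ifi209, with 9 UMIs in each library, was not compared. With doublets removed the log2 ratio of Ifi205 went from -0.59 to -0.54, short of 1.5-fold. The summed log2 ratio was -0.31, and it was -0.19 without Ifi205 and -0.09 when the clusters of the MVC library were weighted to the DMSO shares of cells.

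The 3 FAP-like clusters did not move alike. In cluster 1 none of the 6 members compared passed 1.5-fold, where 17.9% of genes did in either direction. The ratios there ran from 0.774 for Ifi205 over 0.886 for Ifi211, 0.968 for Ifi204, 1.02 for Ifi207 and 1.18 for Ifi203 to 1.30 for Mndal, and the sum was 0.963. Endothelial markers, a sign of RNA of another cell type, summed to 284 CPM in the DMSO and 490 CPM in the MVC cells of cluster 1, all 8 with UMIs in both, and Pecam1 stood at 28.1 and 41.4 CPM. Their part in these ratios was not tested.

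Cluster 2 was the one in which every member compared was below 1. Ifi205 was at 0.576 and Ifi207 at 0.651, both past 1.5-fold, so that 2 of 6 members were lower beside 7.17% of genes. Ifi204 (0.690), Ifi211 (0.734), Ifi203 (0.839) and Mndal (0.895) were lower by less, and the sum was 0.693.

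In cluster 5, led by Pi16, the ratios of Mndal and Ifi203 were above those of the stromal group. Mndal was 1.998-fold (1.75 to 2.28) and Ifi203 1.66-fold (1.49 to 1.85) higher in the MVC library, 2 of 6 members beside 12.1% of genes. Ifi207 (1.08), Ifi204 (0.999), Ifi211 (0.932) and Ifi205 (0.921) differed by less than 1.1-fold in either direction. Aim2, the family's inflammasome sensor and no member, was 2.07-fold higher there.

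EC-like cells, 2303 in the DMSO library and 2121 in the MVC library, held the family at a lower level and with the opposite direction. The summed level was 1.73-fold (1.66 to 1.81) higher in the MVC library. The class was made up differently in the libraries, with 741 and 521 cells in cluster 0 and 206 and 453 in cluster 4. The endothelial markers went both ways. Cldn5 and Fabp4 stood at log2 ratios of -0.72 and -0.73 and Pecam1, Cdh5 and Flt1 at -0.17, -0.19 and -0.05. Kdr, Emcn and Ptprb stood at 0.35, 0.39 and 0.30. Mndal went from 112 to 236 CPM (2.10-fold, 1.96 to 2.26), Ifi203 from 121 to 219 CPM (1.81-fold, 1.69 to 1.95), Ifi204 from 24.7 to 43.4 CPM (1.76-fold, 1.49 to 2.07) and Ifi213 from 14 to 42 UMIs (3.85-fold, 2.06 to 7.63). These were 4 of the 7 members compared, beside 12.6% of genes, and each of the 4 stayed past 1.5-fold under the 6 alternatives tried. Ifi211 (1.21) and Ifi207 (1.19) were higher by less and Ifi205 (0.696) was lower.

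The endothelial difference was seen in more than 1 cluster. The members summed to 2.65-fold in cluster 0, 2.07-fold in cluster 9, 1.94-fold in cluster 3 and 1.85-fold in cluster 6, and to 1.42-fold in cluster 4 and 1.16-fold in cluster 11, the Selp and Sele cluster. Mndal was above 1.5-fold in all 6 of these clusters, from 1.55 in cluster 4 to 3.34 in cluster 0. Ifi205 was at 8 vs. 101 UMIs in cluster 11 and at 41 vs. 4 UMIs in cluster 6. These UMIs came from few cells. Thinned to 2000 UMIs, Ifi205 was seen in 1 of 184 MVC and 4 of 222 DMSO cells of cluster 11 and in 2 of 250 and 1 of 295 cells of cluster 6, and no direction is read from them. A small EC-like cluster with Ptprc UMIs (144 cells, median depth 1311) was the only one of the class with fewer than 50 cells in a library, and the 4 calls were the same without it.

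Macrophage markers in EC-like cells were low in both libraries. All 8 macrophage markers had UMIs in both, their sum was 12.7 CPM in the DMSO and 20.9 CPM in the MVC library, and C1qa stood at 1.33 and 4.39 CPM. Of the 6 macrophage markers compared, 4 were past 1.5-fold higher in the MVC library, while Cd68 (52 and 38 UMIs) was not. B cell markers went the other way, with a sum of 2.66 and 1.22 CPM and Cd79a at 16 and 6 UMIs. Macrophage-like cells themselves held C1qa at 851 and 1011 CPM beside Mndal at 183 and 271 CPM, whereas EC-like cells held Mndal at 112 and 236 CPM. The part of RNA of other cells in the endothelial ratios was not tested beyond these values.

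Tenocyte-like cells had 5 of 6 members higher in the MVC library, beside 12.7% of genes. Ifi203 went from 40.2 to 88.6 CPM (2.21-fold), Ifi205 from 93.6 to 189 CPM (2.02-fold), Ifi211 from 39.5 to 71.9 CPM (1.82-fold), Mndal from 42.8 to 77.2 CPM (1.81-fold) and Ifi207 from 45.8 to 69.0 CPM (1.505-fold). The call of Ifi207 was lost in 4 of 5 alternatives, while Ifi204 was at 1.14. Pdgfra stood at 38.3 and 43.1 CPM in these cells. Member UMIs were held by few of these cells: the 10% of thinned cells richest in them held 95.1% of them in the DMSO library and 93.2% in the MVC library, and 87.5% and 84.8% of cells held none.

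In macrophage-like cells (153 and 209) the sum differed little (1.06) and the members went both ways. Ifi209 went from 33.1 to 51.6 CPM (1.56-fold, 1.13 to 2.17), 1 of 7 members beside 14.8% of genes, and lost its call with doublets removed. Mndal (1.48), Ifi203 (1.44) and Ifi205 (1.39) were higher and Ifi204 (0.732), Ifi211 (0.860) and Ifi207 (0.937) lower in the MVC library by less than 1.5-fold. As in each FAP-like cluster and in EC-like cells, the ratios of Mndal and Ifi203 were above those of the stromal group. In EC-like cells the intervals of Ifi203 and Ifi204 met, and in macrophage-like cells that of Ifi205 (1.10 to 1.76) met those of Mndal and Ifi203. Markers of other cells moved in this class. Endothelial markers summed to 936 CPM in the DMSO and 369 CPM in the MVC library, with UMIs for all 8 in both. FAP markers summed to 471 CPM (10 of 10 with UMIs) and 534 CPM (9 of 10). Single genes of FAPs went both ways, with Ptx3 at 2 and 154 UMIs and Smoc2 at 4 and 32, but Il33 at 46 and 4 and C7 at 39 and 0. Their part in these ratios was not tested.

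Pericyte-like cells had 3 of 6 members lower (8.29% of genes) and 1 higher (14.3% of genes) in the MVC library. Ifi205 was at 0.183, Ifi211 at 0.301 and Ifi207 at 0.586, and Mndal at 1.56. With doublets removed none of the 4 calls was left, and the log2 ratios of Ifi205 and Ifi211 went from -2.45 and -1.73 to 0.04 and 0.20. FAP markers summed to 2444 CPM in the DMSO and 1483 CPM in the MVC pericyte-like cells, with Pdgfra at 43.2 and 13.4 CPM.

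**Figure D5:**
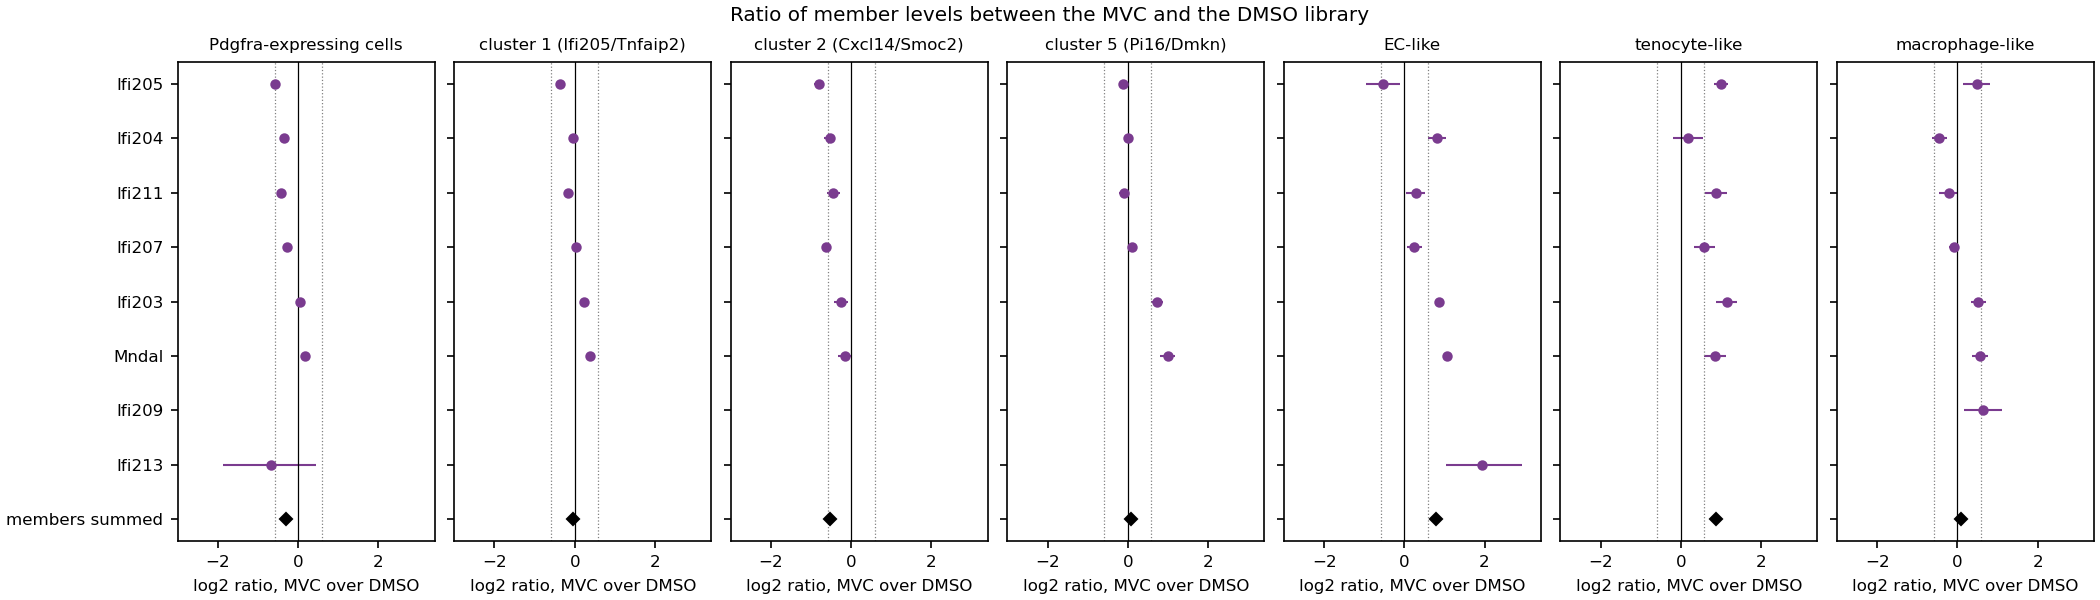
Log2 ratio of each member, MVC over DMSO, in Pdgfra-expressing cells, the 3 FAP-like clusters and the EC-like, tenocyte-like and macrophage-like classes, with exact 95% counting intervals; dotted lines mark 1.5-fold and diamonds the sum of the 8 members. Members with fewer than 20 UMIs are left out. All points of cluster 2 lie left of 0, and Mndal lies right of 0 in the other 6 panels.

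The 5 family genes that are no members were scarce in Pdgfra-expressing cells. Ifi202b had 108 UMIs in the DMSO library and 59 in the MVC library (0.510, 0.365 to 0.707), Aim2 123 and 157 UMIs (1.19, 0.935 to 1.52) and Ifi208 38 and 30 UMIs (0.737, 0.441 to 1.22). Ifi206 (3 and 2 UMIs) and Ifi214 (4 and 0 UMIs) were not compared. Only Ifi202b was past 1.5-fold there. In EC-like cells Ifi208 was 2.54-fold higher in the MVC library.

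A list of 35 interferon-stimulated genes outside the family was set beside the members. In Pdgfra-expressing cells 9 of 33 compared were past 1.5-fold higher and 0 lower, with a median log2 ratio of 0.52, while the members' median was -0.36. Over all genes compared there, 2122 were higher and 885 lower. As examples, Eif2ak2, the RNA-activated kinase PKR, stood at 1.01 and Ifih1, the RNA sensor MDA5, at 0.66 on the log2 scale, and Cxcl10 at 0.58. In EC-like cells 24 of 34 were higher and 0 lower (median 0.82, and 0.07 over all genes), the members' median being 0.81. In cluster 1 the list was at 20 of 31 higher, where 17.9% of genes passed in either direction. Its median was 0.77 (0.09 over all genes) and the members were at -0.01. In cluster 2 Ifit1 (-2.10) and Rsad2 (-1.96) were lower and Ifi27l2a, Iigp1, Igtp, Eif2ak2 and Lgals3bp higher, the members' median being -0.49. The members' median was 0.06 in cluster 5 and 0.86 in tenocyte-like cells. Of the cells for which both medians are given here, the list and the members had like ones in EC-like cells. They had unlike ones in Pdgfra-expressing cells and in cluster 1.

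In Pdgfra-expressing cells, a list of 21 NF-kB feedback and inflammatory FAP genes had a median nearer to that of the members. In EC-like cells its genes went both ways, from 2.75 for Cxcl5 to -2.33 for Ccl7, with Nfkb1 at 0.11 (members' median 0.81). In Pdgfra-expressing cells 1 was higher and 3 lower in the MVC library, where 5.74% of all genes were lower. The list's median log2 ratio there was -0.33. Cluster 1, which the NF-kB genes mark, made up 41.0% and 30.3% of these cells, and its part was not tested. Ptx3, a secreted pattern recognition protein, stood at -0.77, and the chemokine genes Cxcl5 and Cxcl13 at -0.79 and -3.46. In FAP-like cells Cxcl5 stood at -0.12. Nfkbia, the inhibitor of NF-kB, was at -0.26 and Nfkb1 at -0.06. The gene counted as higher was Saa3 (1.20, 106 vs. 43 UMIs). Icam1 (0.26), Relb (0.25), Tnfaip3 (0.20), Birc3 (0.15) and Nfkbiz (0.02) were also above 0, and the rest of the list was below 0. Of 18 genes of DNA sensing and the inflammasome, 2 were higher and 0 lower (median 0.25), beside 19.5% of all genes in either direction. The 2 were Nlrp3 (36 vs. 20 UMIs) and Il1b (124 vs. 39 UMIs). Of the macrophage markers compared in these cells only C1qa passed 1.5-fold (98 vs. 48 UMIs). The part of macrophage RNA was not tested. Of 13 genes of interferon receptors and their signalling 0 were higher and 1 was lower (median 0.08). Ifnb1, the gene of interferon beta, had 0 UMIs in the DMSO and 1 in the MVC Pdgfra-expressing cells.

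The genes most like the summed members over single Pdgfra-expressing cells, by the lower of the Pearson r of the 2 libraries at 2000 UMIs per cell, were the metallothioneins Mt2 (0.51 in the DMSO and 0.55 in the MVC library) and Mt1 (0.49 and 0.53). The chemokine gene Cxcl1 (0.41 and 0.50) and the hexokinase gene Hk2 (0.40 and 0.43) followed, and then Il1r1, Nfkb1, Kdm6b, Tnfaip2, Rock2 and Hmox1. The gene with the most negative r was Txnip (-0.32 and -0.26). Of the NF-kB list, all 17 genes detected had a positive r in both libraries, against 1520 of 5167 genes outside the family, and of the 9 interferon-stimulated genes detected 2 did. Cells of 1 library share its preparation, and the NF-kB genes mark cluster 1. Within cluster 1 the r of Mt2 was 0.33 and 0.44 and that of Nfkb1 0.19 and 0.14, whereas Ccl7 (0.0017 and 0.023), Nfkbia (-0.00093 and 0.011) and Il33 (-0.034 and 0.037) were near 0.

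Over the 25 clusters the genes most like the summed members were Eps8 (r of 0.78), Ecm1 (0.78), Aff1 (0.74), Tapbp (0.72), Lrrk1 (0.71), Hsd17b12 (0.70), Dtx2 (0.70), Tslp (0.68), Il1rl2 (0.68) and Il1r1 (0.68). Il1r1, the receptor of interleukin 1, was among the first 10 by both measures.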

How the data were processed

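Counts of UMIs per gene and cell barcode were deposited by the authors, 1 matrix per library, for the barcodes called as cells. The submitters' processing notes name Cell Ranger 7.0.0, Seurat 5.0.1 and mm10; the annotation release and the handling of reads shared by several genes were not given in the sources used here. The study's filter (at least 500 genes, at most 10% mitochondrial UMIs) was applied.

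The members and gene lists were chosen with earlier results of these data known. Cells were scaled to 10000 UMIs, logged and clustered with scanpy 1.11.5 on 1997 variable genes without the family (30 components, 20 neighbours, Leiden resolution 1), and clusters were named by marker lists. Doublets were called by simulated pairs (2 per cell) and kept. UMIs were summed per class and library. Intervals are exact (Poisson, Clopper-Pearson, conditional binomial for ratios; scipy 1.17.1). With 1 library in each group no test was possible, and a 1.5-fold ratio with at least 20 UMIs over both libraries and 50 cells in each was the rule for calls. All 8 members, the other family genes, the listed genes named and the 10 genes most like the members were reported. The alternatives were doublet removal, other scalings, filters, resolutions, depths and thresholds. Scripts were tested on simulated data.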

Additional observations from a re-analysis of the deposited data

Results flagged for a closer look

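In 4 members the log2 ratio MVC over DMSO lay past 1.5-fold in opposite directions in 2 classes or FAP-like clusters, and both values stayed past it under each alternative run for them. With 1 library in each group the difference between the classes was not tested.

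Ifi205 was at 1.01 in tenocyte-like cells and at -0.80 in cluster 2, the Cxcl14 and Smoc2 cluster of FAP-like cells. Ifi213 was at 1.95 in EC-like cells (42 vs. 14 UMIs) and at -1.06 in FAP-like cells (9 vs. 18 UMIs), where the ratio's interval of 0.190 to 1.12 held 1.

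The B cell-like class, with 206 cells in the DMSO and 109 in the MVC library, gave the other cases. Ifi204 was at 2.53 there (33 vs. 9 UMIs) and at -2.07 in Schwann-like cells (5 vs. 18 UMIs). At 2000 UMIs per cell Ifi204 was seen in 1 of 94 MVC and 1 of 202 DMSO B cell-like cells and in 0 of 107 and 2 of 87 Schwann-like cells, so both values rested on few cells. Ifi207 was at 2.63 in B cell-like cells (51 vs. 13 UMIs) and at -0.62 in cluster 2, and was seen in 5 of 94 MVC and 1 of 202 DMSO B cell-like cells at 2000 UMIs.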

How the results depend on the processing

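No paired analysis was possible because each group held 1 library and no library could be left out. In Pdgfra-expressing cells the summed log2 ratio of -0.31 stayed below 0 throughout. It was -0.28 with doublets removed, -0.36 as the mean over cells of each cell's own CPM, -0.44 with median-ratio scaling, -0.35 with at least 2 Pdgfra UMIs, and, among alternatives added after the data were seen, -0.19 without Ifi205 and -0.093 with the MVC clusters weighted to the DMSO shares of cells. In FAP-like cells (-0.22) it was -0.26 as the mean over cells, -0.36 with median-ratio scaling, -0.20 with the family genes kept in the clustering, -0.27 at resolution 2 and -0.10 without Ifi205. In macrophage-like cells (0.09) resolution 2 gave -0.19; the cause was not tested. The share of Pdgfra-expressing cells with 3 or more members was 82.3% in the DMSO and 72.7% in the MVC library with no thinning, 69.2% and 61.6% at 4000 UMIs, and 22.7% and 18.2% where 2 UMIs were asked of each member. Over members and cell classes, 28 values passed 1.5-fold and 13 did with doublets removed. In Pdgfra-expressing cells 2 members passed, and 1 with at least 100 UMIs, with doublets removed or as the mean over cells. Signs turned in small classes. With doublets removed, Ifi205 and Ifi211 went to -1.02 and -1.60 in B cell-like and to 0.035 and 0.20 in pericyte-like cells, Ifi207 and the sum to -0.65 and -0.091 in MuSC-like cells, and the sum to -0.53 in lymphatic EC-like cells. Without the 3 cells of each library with the most UMIs of the member, Ifi205 and the sum went to 1.32 and 1.32 in Schwann-like cells, Ifi205 to 3.45 in T/NK-like cells and Mndal to -0.22 in lymphatic EC-like cells. Of 34 calls of members (these 28, those of Pdgfra-expressing cells and those of the FAP-like clusters), 17 held under each alternative run for them.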

Other observations

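The unnamed cluster led by Ccl19 and Lgr5 (119 cells in the DMSO and 78 in the MVC library) held FAP markers at a sum of 2304 and 2771 CPM, against 33635 and 29208 CPM in FAP-like cells, and yet its Ifi203 and Mndal levels met those of FAP-like cells. Ifi205, in contrast, was at 21.8 CPM (19 UMIs) in its DMSO cells and at 187 CPM (91 UMIs) in its MVC cells, a log2 ratio of 3.10. Without the 3 cells of each library that held the most Ifi205 UMIs the log2 ratio was 0.21, so that the value rested on those cells. Ifi204 was at 1.003 and Mndal at 1.14 as ratios MVC vs. DMSO in the same cells. At 2000 UMIs per cell, however, Ifi204 was seen in 19 of 116 DMSO cells (16.4%) and 3 of 72 MVC cells (4.17%), and Mndal in 32.8% and 41.7%.

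In T/NK-like cells (186 and 56) Ifi203 was at 183 CPM in the DMSO and 107 CPM in the MVC library, and Mndal at 163 and 145 CPM. Aim2 stood at 92.7 and 81.9 CPM there, at 129 and 125 CPM in B cell-like and at 77.4 and 108 CPM in macrophage-like cells, the same order of these 3 classes as that of Ifi209 in each library.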
